A study of Rattus norvegicus with 6 samples.

Results

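A set of 10 genes of distal tubule calcium, magnesium and chloride handling was followed in rat glomerular isolates. The genes were chosen by name (Slc12a3, Calb1, Trpv5, Trpm6, S100g, Pvalb, Slc8a1, Klk1, Klhl3 and Wnk1), with earlier results of these data known. Each was read from the probeset with the highest mean over the arrays among those annotated with its symbol alone. Of the 10 members 8 had such a probeset, out of 14506 genes in all, and Trpm6 and Klhl3 were not analysed here. Total RNA was hybridized to 6 Affymetrix Rat Gene ST arrays. PEC-enriched isolates were enriched in capsulated glomeruli that stayed on the 90 µm sieve (3 arrays), and PEC-deprived isolates held mostly glomeruli without a capsule that were collected at 75 µm (3 arrays). PEC stands for the parietal epithelial cell, which lines Bowman's capsule. All isolates came from the kidney cortex of untreated male Sprague-Dawley rats, and no cells were cultured. The methods describe isolation from individual rats and give 3 animals, but do not say whether both fractions came from the same animals, and tubular fragments were counted in both kinds of preparation. Values are log2 expression values after RMA, the authors' background adjustment, quantile normalization and summary of each probeset.

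The distal convoluted tubule and the connecting tubule behind it set the final amounts of sodium chloride, calcium and magnesium in the urine. Sodium and chloride enter their cells through the thiazide-sensitive cotransporter encoded by Slc12a3, which is switched on by the WNK kinases, and KLHL3 marks those kinases for degradation. Calcium enters through the channel TRPV5, is carried across the cell by calbindins and leaves through the sodium-calcium exchanger encoded by Slc8a1, while magnesium enters through TRPM6. The comparison gives the levels of these genes in a fraction enriched in capsulated glomeruli against one made mostly of decapsulated glomeruli, and the enriched fraction also held decapsulated glomeruli.

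The members split into 3 genes whose means were higher by 0.93 or more in PEC-enriched isolates, Slc12a3, Calb1 and Klk1, and 5 genes whose log2 fold changes lay between -0.11 and 0.24. No member passed an adjusted p under 0.01 in limma (0 of 8), and over all genes 0% did, with a smallest adjusted p of 0.152. The threshold is that of the study's methods, which applied it to a Bayesian test. A regularised test of that kind, with a local variance prior at weight 10, called 3 of the 8, Slc12a3, Calb1 and Klk1, and 1.65% of all genes, while at weights of 6 and 3 it called 0 of the 8. The share of all genes called at weights of 6 and 3 was not counted. At an unadjusted p under 0.05 in limma 3 of the 8 were higher and 0 were lower, where 7.96% of all genes were higher and 5.65% lower. In 4 of the 8 every PEC-enriched array exceeded every PEC-deprived one, as in 9.68% of all genes, and in 0 of the 8 every one lay below, as in 9% of all genes. Without PEC-enriched replicate 3 the groups did not overlap in 7 of the 8 (6 higher and 1 lower), where 31.2% of all genes did not overlap in either direction and 15.6% were higher. The median log2 fold change was 0.21 over the 8 members and -0.02 over all genes.

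Slc12a3 encodes the sodium-chloride cotransporter that defines the distal convoluted tubule. It had log2 values of 10.06, 9.25 and 8.93 in PEC-enriched replicates 1, 2 and 3, against 8.20, 6.91 and 7.12 in PEC-deprived replicates 1, 2 and 3. The groups did not overlap, and the lowest PEC-enriched array stood 0.73 above the highest PEC-deprived array, which was replicate 1. PEC-enriched isolates averaged 9.41 ± 0.587 and PEC-deprived isolates 7.41 ± 0.69 (SD, 3 arrays a group). The difference was 2.00 on the log2 scale, or 4.01-fold (SE 0.377, 95% confidence interval 1.14 to 2.87, adjusted p = 0.166 in limma). Among all 14506 genes it ranked 9 from the top by fold change. In bulk isolates more cells of a type and more RNA per cell cannot be told apart.

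Calb1 encodes calbindin-D28k, the cytosolic protein that carries calcium across distal tubule cells. Its log2 values were 8.24, 7.16 and 7.56 in PEC-enriched replicates 1, 2 and 3, against 6.44, 5.17 and 4.86 in PEC-deprived replicates 1, 2 and 3. The groups did not overlap, with a gap of 0.72, and replicate 1 was the highest array in each of them. PEC-enriched isolates averaged 7.65 ± 0.544 and PEC-deprived isolates 5.49 ± 0.833 (SD, 3 arrays a group), which is a difference of 2.16 on the log2 scale, or 4.47-fold (SE 0.412, 95% confidence interval 1.21 to 3.11, adjusted p = 0.166 in limma). This was the highest fold change of the members and ranked 6 among all genes.

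Klk1 encodes a tissue kallikrein, a protease of the connecting tubule that releases kinins and cleaves channel and transporter proteins. Its log2 values were 8.28, 8.16 and 8.33 in PEC-enriched replicates 1, 2 and 3, against 7.65, 7.04 and 7.27 in PEC-deprived replicates 1, 2 and 3. The PEC-enriched arrays lay within 0.16 of each other, and the gap to the highest PEC-deprived array was 0.51. PEC-enriched isolates averaged 8.26 ± 0.0858 and PEC-deprived isolates 7.32 ± 0.306 (SD, 3 arrays a group), higher by 0.93, or 1.91-fold (SE 0.152, 95% confidence interval 0.58 to 1.29, adjusted p = 0.153 in limma). In the rat the kallikreins form a cluster of closely similar genes, so probes may be shared, and the values of single copies are uncertain. The member is the gene that the platform annotation and RefSeq call Klk1, while the study's own gene list uses that name for another copy, now Klk1b3. Klk1b3, which is not a member, was higher by 1.89 (SE 0.365, adjusted p = 0.166 in limma). Of the 9 measured copies named Klk1b or Klk1c, 2 had an unadjusted p under 0.05 in limma, Klk1b3 and Klk1c4, and both were higher. Over all genes 7.96% were higher at that p. Klk1c4 stood at 0.52 (SE 0.145, adjusted p = 0.274 in limma). Klk1b3 and Klk1c4 were chosen after their values were seen.

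**Figure D1:**
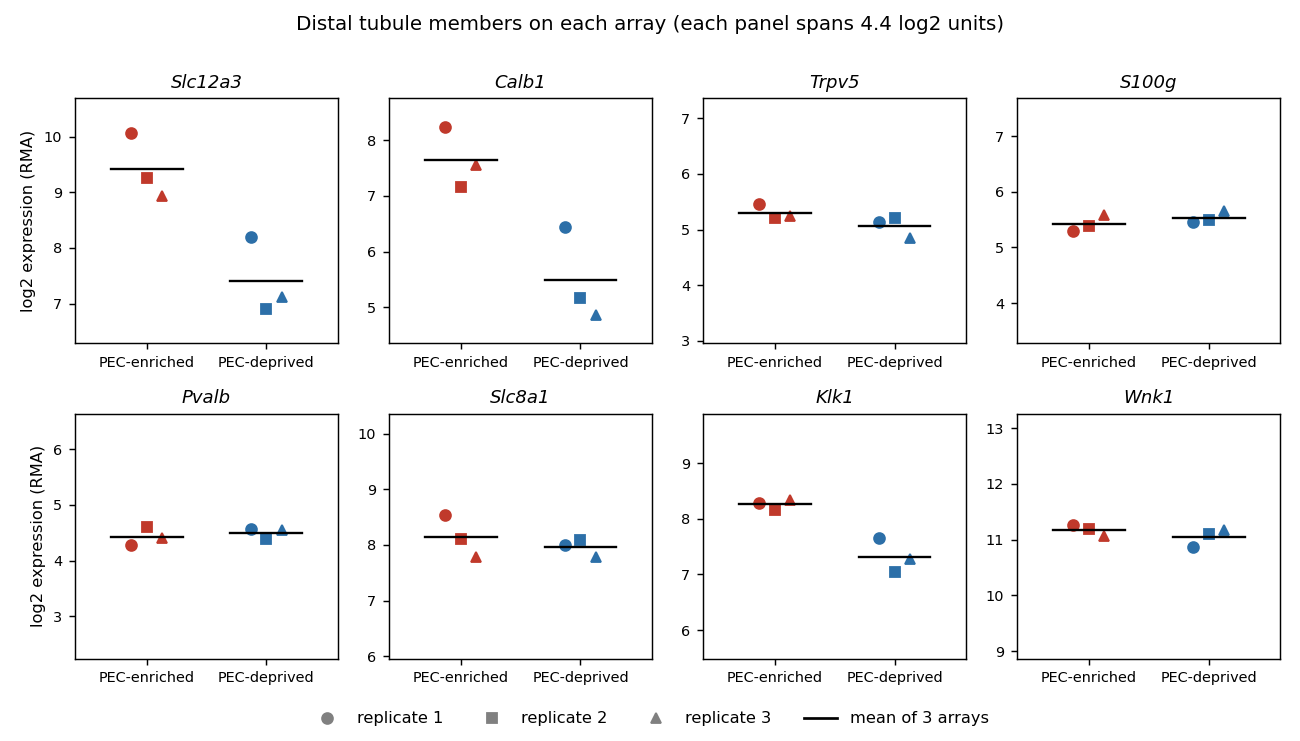
log2 expression (y axis, RMA values) of the 8 measured members in PEC-enriched and PEC-deprived isolates (x axis), each point 1 array with its replicate shown by the marker and each line the mean of 3 arrays; every panel spans 4.4 log2 units. For Slc12a3, Calb1 and Klk1 the PEC-enriched arrays stand at least 0.51 above the PEC-deprived arrays, and in the other panels the groups overlap or, for Trpv5, are 0.01 apart.

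The start regions of Slc12a3 and Klk1 are shown because the means of these genes were higher together, and that of Trpv5, the calcium channel of the same cells, because its groups were 0.01 apart. RefSeq promoters of the GRCr8 assembly, 250 bases before to 50 bases after a transcript start, were given for 6 of the 8 measured members and not for Calb1 and S100g. They are printed 5′ to 3′ on the gene's strand, with matches to 4 motifs in capitals. The motifs were GTTAAT (the core of HNF1 sites), AGGTCA (a nuclear receptor half-site) and TGTTCT (a corticosteroid receptor half-site), searched on both strands, and TATAAA (the TATA box), searched on the gene's strand.
Slc12a3, chr19:10675001-10675300, minus strand: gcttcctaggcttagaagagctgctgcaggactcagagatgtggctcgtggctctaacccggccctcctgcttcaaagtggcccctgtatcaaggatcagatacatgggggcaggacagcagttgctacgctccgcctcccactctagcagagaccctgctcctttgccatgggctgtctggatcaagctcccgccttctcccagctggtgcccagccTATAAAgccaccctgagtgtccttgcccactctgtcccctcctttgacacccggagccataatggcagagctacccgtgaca
Klk1, chr1:103778902-103779201, plus strand: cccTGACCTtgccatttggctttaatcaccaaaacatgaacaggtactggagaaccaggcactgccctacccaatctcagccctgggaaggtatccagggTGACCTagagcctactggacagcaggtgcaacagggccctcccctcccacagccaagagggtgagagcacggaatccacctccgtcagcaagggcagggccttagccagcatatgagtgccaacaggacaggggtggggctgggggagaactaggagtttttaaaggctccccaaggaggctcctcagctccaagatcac
Trpv5, chr4:71529333-71529632, minus strand: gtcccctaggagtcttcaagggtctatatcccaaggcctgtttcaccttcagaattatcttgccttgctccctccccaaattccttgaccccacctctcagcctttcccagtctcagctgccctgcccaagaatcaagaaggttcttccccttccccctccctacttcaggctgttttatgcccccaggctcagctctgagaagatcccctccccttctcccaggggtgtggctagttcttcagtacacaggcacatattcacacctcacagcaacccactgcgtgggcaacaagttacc

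The window of Slc12a3 held TATAAA with its first base at -32 from the start, a motif found in 8.8% of 33469 rat promoters of the same length. That of Klk1 held AGGTCA 2 times on the opposite strand, at -247 and -150, a motif found in 16.2% of all promoters. The window of Trpv5 held none of the 4. GTTAAT was found in 7.45% and TGTTCT in 20.7% of all promoters and in neither Slc12a3 nor Klk1. No motif was shared by the Slc12a3 and Klk1 windows, and a match is a stretch of letters only. Windows around other starts of these genes were not searched.

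Trpv5, the channel through which calcium enters distal tubule cells, had log2 values of 5.46, 5.21 and 5.25 in PEC-enriched replicates 1, 2 and 3, against 5.14, 5.20 and 4.85 in PEC-deprived replicates 1, 2 and 3. The groups did not overlap, but PEC-enriched replicate 2 and PEC-deprived replicate 2 were only 0.01 apart. The log2 fold change was 0.24 (SE 0.124, 95% confidence interval -0.04 to 0.53, adjusted p = 0.578 in limma). Without PEC-deprived replicate 3 it was 0.14. The interval of Trpv5 ended below the start of those of Slc12a3, Calb1 and Klk1. Trpv5, Calb1, S100g and Pvalb lay below the median level of all probesets, and the other 4 measured members above it. By mean level Trpv5 was at percentile 23.5, and whether its signal exceeded background was not assessed.

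S100g encodes calbindin-D9k, a smaller calcium-binding protein best known from the intestine. Its log2 values were 5.30, 5.39 and 5.58 in PEC-enriched replicates 1, 2 and 3, against 5.46, 5.50 and 5.65 in PEC-deprived replicates 1, 2 and 3, and the groups overlapped. Pvalb encodes parvalbumin, a calcium buffer of the early distal convoluted tubule and of muscle and neurons. It had log2 values of 4.27, 4.60 and 4.40 in PEC-enriched replicates 1, 2 and 3, against 4.57, 4.39 and 4.54 in PEC-deprived replicates 1, 2 and 3, and the highest and the lowest array were both PEC-enriched. The 95% confidence interval of the log2 fold change ran from -0.36 to 0.14 for S100g (log2 fold change -0.11, adjusted p = 0.822 in limma). For Pvalb it ran from -0.34 to 0.18 (log2 fold change -0.08, adjusted p = 0.901 in limma). Of the 3 calcium-binding proteins among the members Calb1 alone thus had an interval above 0. By mean level S100g lay at percentile 28.1 of all probesets and Pvalb at 14, against 47.5 for Calb1. Detection over background was not assessed, so the intervals of S100g and Pvalb do not show that these genes were unchanged.

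Slc8a1 encodes the sodium-calcium exchanger NCX1, which moves calcium out of distal tubule cells and is also known from heart and smooth muscle. It had log2 values of 8.53, 8.11 and 7.78 in PEC-enriched replicates 1, 2 and 3, against 7.99, 8.09 and 7.79 in PEC-deprived replicates 1, 2 and 3. The groups overlapped, and the PEC-enriched arrays held both the highest and the lowest value. The log2 fold change was 0.18 (SE 0.184, 95% confidence interval -0.24 to 0.61, adjusted p = 0.834 in limma). Without PEC-enriched replicate 1 it was -0.01 (adjusted p = 0.99 in limma). Of 4 measured markers of smooth muscle and mesangium 3 had higher means in PEC-enriched isolates (median 0.47), and their part in the value of Slc8a1 was not tested.

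Wnk1 encodes a kinase found in most tissues, with a short kidney form made in the distal convoluted tubule. Its values were 11.26, 11.19 and 11.06 on the log2 scale in PEC-enriched replicates 1, 2 and 3, against 10.86, 11.11 and 11.17 in PEC-deprived replicates 1, 2 and 3. The groups overlapped, and the log2 fold change was 0.12 (SE 0.112, 95% confidence interval -0.14 to 0.38, adjusted p = 0.82 in limma). Without PEC-deprived replicate 1 it was 0.03. A second probeset of Wnk1 gave 0.25 (SE 0.175, adjusted p = 0.739 in limma), again with overlap. Which form of the kinase each probeset reads is not given in the sources used here.

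**Figure D2:**
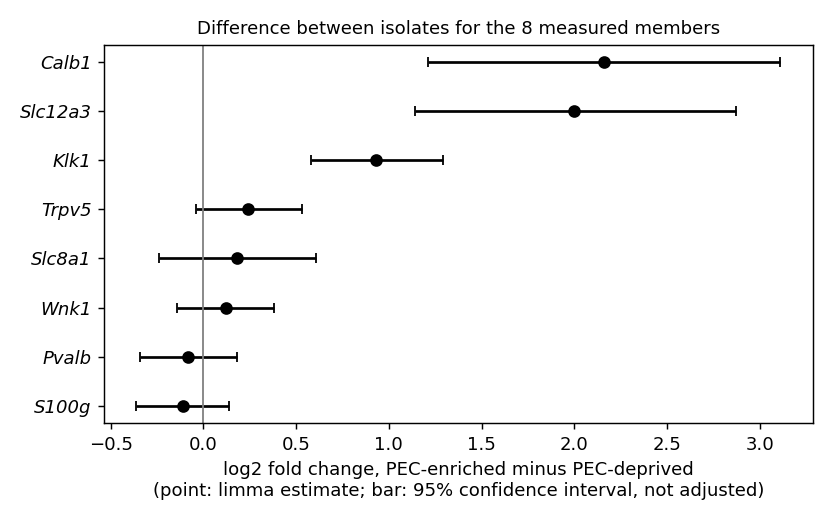
log2 fold change of the 8 measured members (x axis, PEC-enriched minus PEC-deprived), genes on the y axis, each point the limma estimate and each bar its 95% confidence interval without adjustment for multiple tests. The intervals of Calb1, Slc12a3 and Klk1 lie above 0, from 0.58 upward, and those of the other 5 members include 0.

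Within each group the arrays differed in Slc12a3 and Calb1 by more than 1 log2 unit, and tubule markers moved on the same arrays. Relative to its mean over the 6 arrays, Slc12a3 stood at 1.65, 0.84 and 0.51 in PEC-enriched replicates 1, 2 and 3, and at -0.21, -1.50 and -1.29 in PEC-deprived replicates 1, 2 and 3. Calb1 stood at 1.67, 0.59 and 0.99 in PEC-enriched replicates 1, 2 and 3, and at -0.13, -1.40 and -1.71 in PEC-deprived replicates 1, 2 and 3. Both were thus highest in replicate 1 of each group. Klk1 was highest in PEC-enriched replicate 3, at 0.54 against 0.50 in replicate 1, and in PEC-deprived replicate 1. Marker genes of the thick ascending limb, the segment before the distal convoluted tubule, averaged 1.04, 0.60 and 0.58 in PEC-enriched replicates 1, 2 and 3, and -0.07, -1.21 and -0.94 in PEC-deprived replicates 1, 2 and 3. Like Slc12a3 and Calb1, this list was highest in replicate 1 of each group. So were the lists of intercalated cells, of collecting duct principal cells, and of smooth muscle and mesangium. In the principal cell list Gata3 varied most, at 10.95, 9.23 and 9.55 in PEC-enriched replicates 1, 2 and 3. Of its other genes only Aqp2 was highest in PEC-enriched replicate 1. In the smooth muscle list Pdgfrb varied most, at 11.33, 9.96 and 10.10 on the same arrays. The other measured genes of that list were highest in PEC-enriched replicate 2. The intercalated list averaged 0.49, 0.23 and 0.45 in PEC-enriched replicates 1, 2 and 3, and -0.11, -0.54 and -0.52 in PEC-deprived replicates 1, 2 and 3. This order was therefore not particular to the thick ascending limb, although in the intercalated list PEC-enriched replicates 1 and 3 were close. In the principal cell and smooth muscle lists it leaned on Gata3 and Pdgfrb.

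Proximal tubule and parietal cell markers had another order among the PEC-enriched arrays. Proximal tubule markers averaged 0.33, 0.85 and 0.23 in PEC-enriched replicates 1, 2 and 3, and 0.15, -1.11 and -0.46 in PEC-deprived replicates 1, 2 and 3. Parietal markers averaged 0.20, 0.70 and 0.41 in PEC-enriched replicates 1, 2 and 3, and -0.18, -0.65 and -0.48 in PEC-deprived replicates 1, 2 and 3. Both lists were highest in PEC-enriched replicate 2, where Slc12a3 and Calb1 were not, and among the PEC-deprived arrays they were highest in replicate 1. With 3 arrays a group such an order is a description of these arrays.

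All 7 thick ascending limb markers averaged higher in PEC-enriched isolates (median log2 fold change 1.45, 5 at an unadjusted p under 0.05 in limma). So had all 7 intercalated cell markers (0.79, 7), all 10 proximal tubule markers (1.01, 10), 8 of 9 parietal markers (0.80, 7) and 6 of 7 principal cell markers of the collecting duct (0.23, 4). The 5 measured podocyte markers had a median of 0.05, with 0 at an unadjusted p under 0.05. All 7 endothelial markers (-0.48) and all 7 leukocyte markers (-0.44) had lower means. No marker of any list passed an adjusted p under 0.01 in limma. The regularised test at weight 10 called 5 thick ascending limb, 4 intercalated cell, 6 parietal, 2 smooth muscle, 1 proximal tubule and 1 endothelial marker. Over all genes 1.65% were called by that test, and 7.96% were higher and 5.65% lower at an unadjusted p under 0.05 in limma. The lists were chosen with earlier results of these data known. Several of their genes, among them Umod, Cdh6, Lad1 and Pax8, are in the study's own list of higher genes from these arrays. The counts are therefore a description and no independent support. The part of these cells in the member values was not tested. The lists share no gene with the members, but Slc12a3 and Calb1 are themselves tubule markers.

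**Figure D3:**
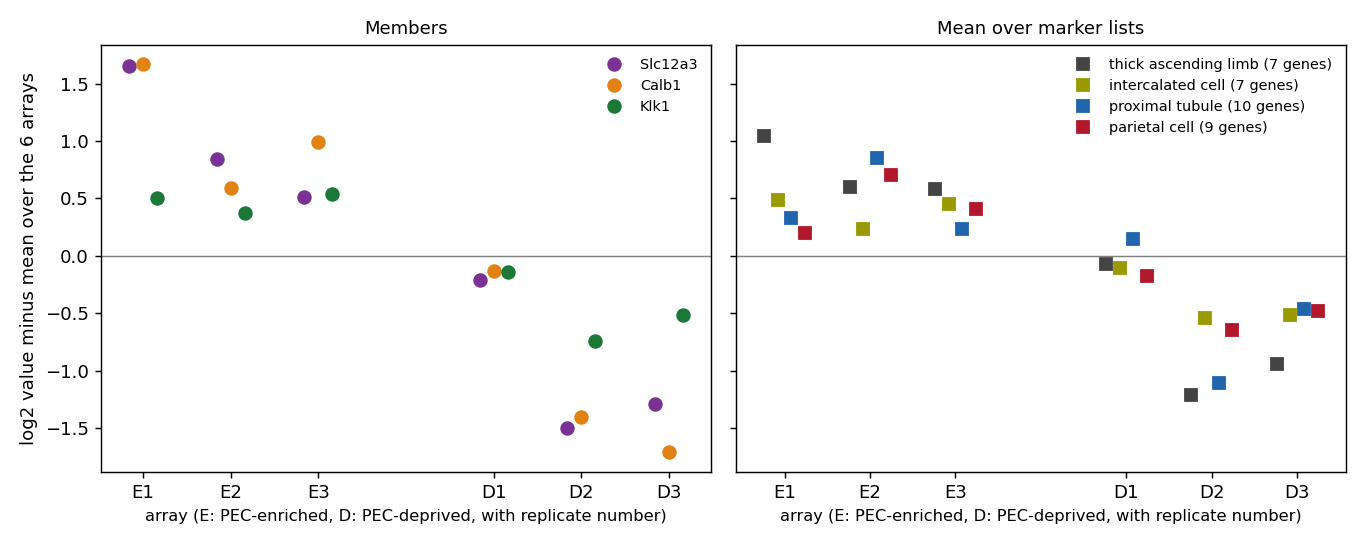
log2 values relative to the mean over the 6 arrays (y axis) for Slc12a3, Calb1 and Klk1 (left) and for the mean of 4 marker lists (right), by array (x axis, E for PEC-enriched and D for PEC-deprived, with the replicate number), each point 1 array. Slc12a3, Calb1 and the thick ascending limb and intercalated cell lists are highest in E1, while the proximal tubule and parietal lists are highest in E2 and Klk1 in E3.

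The genes most like Slc12a3 over the 6 arrays were sought by the root mean square difference between values centred on each gene's mean. The nearest of 14505 genes was Egf, at a difference of 0.204 log2 units. Egf encodes epidermal growth factor, a hormone that stimulates magnesium uptake in the distal convoluted tubule. Egf was followed by Ly6i (0.238), Cldn16 (0.247), the member Calb1 (0.282) and Tmem52b (0.324). Cldn16 encodes a tight junction protein of the thick ascending limb, where magnesium passes between the cells. Klk1 ranked 119 by this measure, at a difference of 0.675, and the other 5 measured members ranked between 1145 and 12349. This measure depends on the size of the differences between arrays, so a gene that changed little lies far from Slc12a3 whatever its order over the arrays. It therefore cannot decide whether the members shared a pattern.

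The partner lists were chosen by hand with earlier results of these data known, so their counts are a description. The partners of calcium transport, 15 genes and all measured, had 10 higher and 5 lower means and a median log2 fold change of 0.14. At an unadjusted p under 0.05 in limma 4 were higher and 0 lower, where 7.96% of all genes were higher and 5.65% lower. Kl, which encodes klotho, a coreceptor for the hormone FGF23 made in the distal tubule, had the highest fold change, with log2 values of 9.01, 9.18 and 8.73 in PEC-enriched replicates 1, 2 and 3, against 8.42, 7.42 and 7.94 in PEC-deprived replicates 1, 2 and 3. Its log2 fold change was 1.05 (SE 0.237, adjusted p = 0.2 in limma). Atp2b4, a plasma membrane calcium pump, was higher by 0.97 (SE 0.165, adjusted p = 0.159 in limma), and the groups overlapped in neither gene. The lowest was the related pump Atp2b1, at -0.19 (SE 0.116, adjusted p = 0.689 in limma), with overlap.

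The partners of magnesium transport had the highest median of the 4 partner lists, 0.49 over 11 measured of 15 genes, with 10 higher and 1 lower mean. At an unadjusted p under 0.05 in limma 7 were higher and 0 lower (7.96% and 5.65% of all genes). In these 7 every PEC-enriched array exceeded every PEC-deprived one, as in 9.68% of all genes. Egf, Cldn16, Cldn19, Fxyd2 and Kcnj16 are in the study's own list of higher genes from these arrays. The counts of this list are therefore no independent support. Egf had log2 values of 10.69, 10.37 and 10.05 in PEC-enriched replicates 1, 2 and 3, against 9.03, 7.58 and 7.85 in PEC-deprived replicates 1, 2 and 3, a log2 fold change of 2.22 (SE 0.348, adjusted p = 0.152 in limma). Cldn16 was higher by 2.04 (SE 0.225, adjusted p = 0.152 in limma). The lowest, the magnesium carrier gene Slc41a3, stood at -0.13 (SE 0.0904, adjusted p = 0.741 in limma). Thick ascending limb markers were higher on the same arrays, and Cldn16 and Cldn19 in this list belong to that segment.

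Of 17 genes around the WNK pathway and distal chloride transport 12 were measured, of which 8 had higher and 4 lower means (median 0.19). At an unadjusted p under 0.05 in limma 5 were higher and 1 was lower (7.96% and 5.65% of all genes). Ppp1r1a, a phosphatase inhibitor, had log2 values of 8.41, 8.20 and 8.22 in PEC-enriched replicates 1, 2 and 3, against 7.40, 6.84 and 7.20 in PEC-deprived replicates 1, 2 and 3, a log2 fold change of 1.13 (SE 0.148, adjusted p = 0.152 in limma). Bsnd, which encodes barttin, the subunit of the basolateral chloride channels, was higher by 0.80 (SE 0.176, adjusted p = 0.191 in limma). The lowest was Sgk1, a kinase induced by corticosteroids that acts on sodium transport, at -0.32 (SE 0.111, adjusted p = 0.363 in limma), with every PEC-enriched array below every PEC-deprived one.

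Around kallikrein and the kinins, 12 genes were measured of 12, of which 6 had higher and 6 lower means (median -0.02). At an unadjusted p under 0.05 in limma 2 were higher and 0 lower (7.96% and 5.65% of all genes). Mme, which encodes neprilysin, a peptidase that breaks down kinins and is known from the proximal tubule brush border and from podocytes, was higher by 1.12 (SE 0.225, adjusted p = 0.17 in limma). Kng1, the kinin precursor, stood at 0.48 (SE 0.174, adjusted p = 0.376 in limma). Klk6, a kallikrein-related peptidase, was the lowest at -0.17 (SE 0.104, adjusted p = 0.689 in limma). In limma 0 genes of the 4 partner lists passed the threshold of 0.01 after adjustment. The regularised test at weight 10 called 3 of the calcium, 5 of the magnesium, 2 of the chloride and 1 of the kinin list. That test called 1.65% of all genes.

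**Figure D4:**
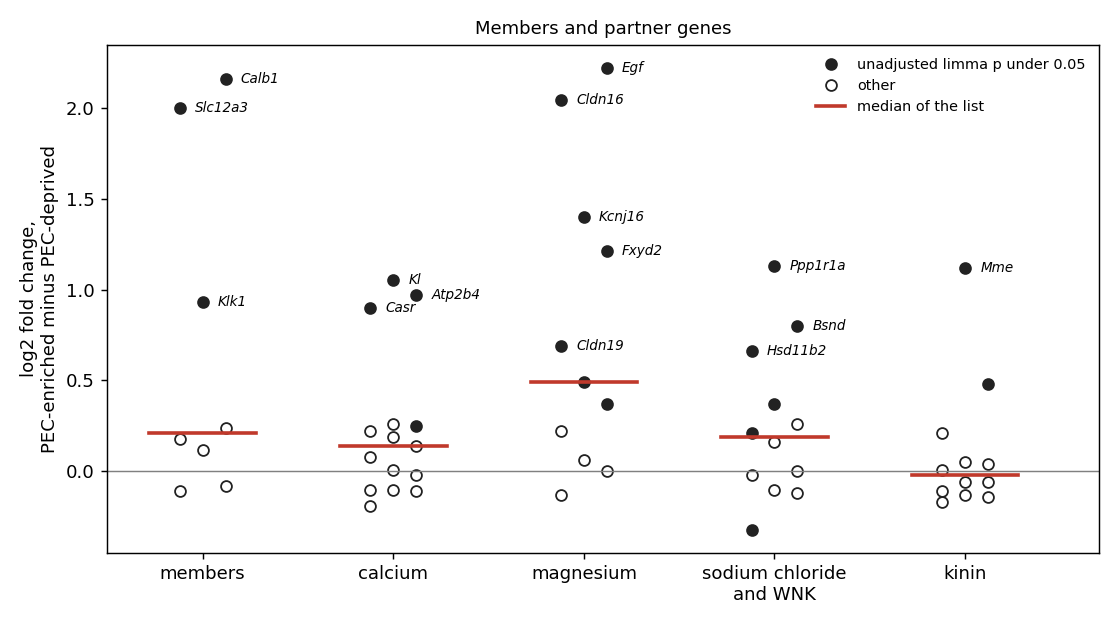
log2 fold change (y axis, PEC-enriched minus PEC-deprived) of the members and the 4 partner lists (x axis), each point 1 gene, filled where the unadjusted limma p is under 0.05, and each line the median of the list; genes beyond 0.6 are named. The magnesium list has the highest median, 0.49, and Egf, Calb1, Cldn16 and Slc12a3 are the highest points, at 2.00 or above.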

How the data were processed

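The deposited values are log2 expression values, which the authors made with RMA (background adjustment, quantile normalization, 1 value per probeset and array). The base is not stated for the table, but the highest value, 13.87, exceeds the natural logarithm of the largest 16-bit intensity (11.09), and RMA commonly returns log2. The software behind RMA is not given in the sources used here, nor is the probeset definition. Detection calls were not used, so signal over background is unknown, and the number of arrays limits precision. Array medians lay between 6.69 and 6.75, and no arrays were identical.

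Of 29215 probesets, 15310 had 1 symbol in the platform annotation of 2016, read against RefSeq Entrez IDs. Members and lists were chosen with earlier results of these data known. All probesets were fitted in R 4.3.3 with lmFit and eBayes of limma 3.58.1, without a replicate block, and two-sided p-values were adjusted after Benjamini-Hochberg (threshold 0.01). Named partners were the 2 highest and the 1 lowest of each list by fold change. The study's methods name a Bayesian t-test, so a regularised t-test (local variance prior, weight 10) was an alternative. The others were a replicate block, an intensity trend, array weights, filters on level and annotation, median centring, cyclic loess, a threshold of 0.05, averaged probesets and each array left out. Prior weights of 6 and 3 were added after the data were seen. In 5 simulated data sets with all 29215 probesets limma found 90.6% of the probesets changed by 1 log2 unit and 100% of those changed by 2, with 1.24% false calls. The regularised test found 98.2% and 100% of them, with 11.1% false calls. The simulated noise was normal and independent between probesets, with limma's shrunken variances. On the real arrays limma called 0 probesets at the same threshold, although Slc12a3 differed by 2.00 and Calb1 by 2.16. The simulated shares thus do not give the power or the false calls of either test on these arrays. Figures were drawn with matplotlib 3.10.9.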

Additional observations from a re-analysis of the deposited data

How the results depend on the processing

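The count of members past the threshold was 0 under every alternative except the regularised t-test at its prior weight of 10, which called 3 members, Slc12a3, Calb1 and Klk1 (adjusted p = 1.24e-04, 1.08e-04 and 8.28e-04 by that test), where it called 1.65% of all genes. At prior weights of 6 and 3 it called 0 members, and the share of all genes called at those weights was not counted. With only the 4 members above the median level, 2 did not overlap between the groups and the median log2 fold change was 0.56, since Calb1, Trpv5, S100g and Pvalb are then left out. The share of all genes above that level without overlap was not counted. With single arrays left out, the count without overlap ran from 4 to 7, with the highest count without PEC-enriched replicate 3, while 25.4 to 34.1% of all genes did not overlap in either direction. The median ran from 0.12 to 0.32, and the count at an unadjusted p under 0.05 stayed at 3, where 4.83 to 8.9% of all genes were higher at that p. The log2 fold change then ran from 1.68 to 2.40 for Slc12a3, from 1.85 to 2.63 for Calb1 and from 0.80 to 1.10 for Klk1, highest without PEC-deprived replicate 1 in each. Of 116 single-gene values under alternatives 112 kept their direction and side of the threshold, 3 passed it as given above, and 1 was reversed, Slc8a1 at -0.01 without PEC-enriched replicate 1 (highest 0.36, without PEC-enriched replicate 3). For the pairing, same-numbered arrays had correlations of their deviations from the group means of -0.03, 0.05 and 0.10, too low to treat the numbers as pairs. This does not settle whether animals were shared. With the replicate block 0 members passed the threshold, 3 had an unadjusted p under 0.05, and the median was 0.21. The share of all genes at that p was not counted for the fit with the block.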
